A study of Danio rerio with 48 samples.

Results

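At 4 days post fertilisation (dpf), heads of zebrafish larvae kept in 14 µM potassium perfluorohexanesulfonate (PFHxS) were compared with heads of vehicle larvae. PFHxS is one of the perfluoroalkyl substances (PFAS), which served as surfactants. Libraries were chosen by the column names of the deposited count table, which carry the age and the group, and this gave 12 of the 48 libraries in the series, 6 at 14 µM and 6 in DMSO. Every larva of both groups was in 0.4% DMSO from 0 dpf, with the solution renewed daily, in wells that held 1 embryo each. The fish were a mixed wild-type line. Each library was made from polyA RNA of 15 pooled heads, cut off in front of the swim bladder. The same concentration at 5 dpf (6 libraries, with 6 in DMSO) and the groups at 7.87 and 25.1 µM and 4 dpf (6 libraries each) are used only for comparison. Nothing in the labels says that the pools came from separate clutches or days, so the spread between pools may be technical. The p-values set a difference against that spread as estimated over all 48 libraries, not over the 12 compared alone.

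PFAS with an acid head group resemble fatty acids, bind fatty acid binding proteins and activate peroxisome proliferator-activated receptors (PPARs) in mammals. The head of a larva at this age holds brain, eyes, ears, jaw cartilage, muscle, skin and pituitary. The retina is by then functional, with cones and rods that carry the phototransduction proteins. Liver, exocrine pancreas and gut lie in the trunk, close to the cut.

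Libraries held 17.4 to 27 M counts at 14 µM and 20.3 to 29.4 M in DMSO (1 M is 1000000). Scaling factors (TMM, the trimmed mean of M values) were 0.652 to 0.867 at 14 µM and 0.665 to 0.981 in DMSO. Genes with at least 1 count numbered 20919 ± 580 at 14 µM and 21610 ± 586 in DMSO (SD, n = 6 each; exact two-sided permutation p = 0.0693). With single libraries left out, the difference of -691 genes lay between -549 and -893. It was -549 without library I of DMSO and -566 without library B of 14 µM, with exact permutation p = 0.136 and 0.126. It was -893 without library I of 14 µM and -857 without library G of DMSO, with exact p = 0.0238 and 0.0346. The same exact permutation test gave p = 0.299 for total counts, 0.266 for the scaling factor and 0.981 for the share of counts in the 10 most counted genes, which was 22.4 to 29.2% at 14 µM and 23.6 to 32% in DMSO. Head markers were abundant in both groups: the cartilage collagen gene col2a1a had medians of 34608 and 28431 CPM at 14 µM and in DMSO (counts per 1000000, scaled by TMM), the cone transducin gene gnat2 2112 and 2482, the neuronal gene elavl3 189 and 183, and the keratin gene krt4 8979 and 9910. Of the defining markers in the table, none was at 0 in all 12 libraries, those of liver, pancreas and gut included; cela1.2 (pancreas) and vmhc (heart) were not in it. The spread was wider among the 14 µM libraries, where the SD of log2 CPM had a median of 0.51 over 14335 genes, against 0.338 in DMSO. On the first principal component of these 12 libraries (39.9% of the variance) the 14 µM libraries ran from -90.4 (B) to 71.5 (H) and the DMSO libraries from -15.5 to 36, inside that range. By place in the count table, 4 libraries of 14 µM (B, C, D, I) and 2 of DMSO (B, F) stood among the first 32 columns, and 2 (A, H) and 4 (E, G, H, I) among the last 16. The labels do not say which libraries shared 1 of the 3 sequencing pools.

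Across 20723 genes tested in all, none differed between 14 µM and DMSO at an adjusted p under 0.05 by edgeR's quasi-likelihood test (0% called). An unadjusted p under 0.05 was found for 1046 genes (5.05%), 567 higher (2.74%) and 479 lower (2.31%). Of these 54.2% were thus higher, a share that was 65.5% with another scaling (RLE), 66.3% in DESeq2, 35.8% in limma and 74.2% in a fit of the 24 libraries of 4 dpf. Over bins of 0.05 the p-values spread evenly, with 965 to 1108 genes a bin and 1046 in the first. With B of 14 µM left out 696 genes passed that p, and with I of 14 µM left out 1605 did. The median log2 fold change was 0.00, and 50.7% of genes had one above 0. By the other tools, DESeq2 called 1 gene and limma on the quantile-normalised values 1 gene, in each case rbms1b. Groups did not overlap for 22 genes, 5 with all 14 µM libraries above all DMSO libraries (0.0241%) and 17 with all below (0.082%).

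**Figure D1:**
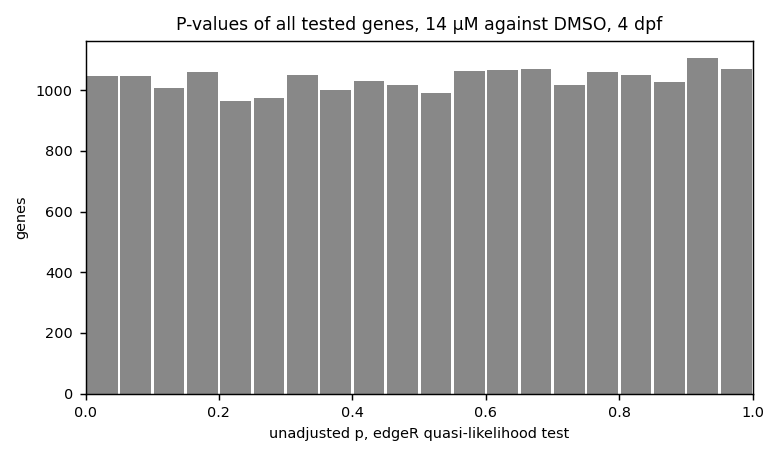
Number of tested genes by unadjusted p (bins of 0.05) for 14 µM against DMSO at 4 dpf. The bars stay between 965 and 1108 genes, and the first, with 1046, does not stand above the rest.

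The genes with the smallest p were lower at 14 µM, and most of them had few counts. Rbms1b (chromosome 9, 51655636 to 51755759, GRCz11) encodes an RNA-binding protein of the RBMS family. Its CPM in libraries A, B, C, D, H and I of 14 µM was 0, 0, 0.269, 0.266, 0.259 and 0.769, against 0.53, 1.63, 1.33, 0.997, 1.1 and 1.79 in libraries B, E, F, G, H and I of DMSO. In counts this was 0 to 18 reads a library at 14 µM and 9 to 42 in DMSO. Only library I of 14 µM reached into the range of DMSO, above library B of DMSO. The log2 fold change was -2.10 ± 0.43 (SE) with an adjusted p of 0.304. It was 0.016 by DESeq2 and 0.0452 by limma, and 0.00364 by edgeR without library I of 14 µM, where the log2 fold change was -2.88. No other setting called the gene. The adjusted p was 0.413 with surrogate variables, 0.647 with the letter as a replicate block and 0.999 without library D of 14 µM. With the set of columns as a block, or without library B of 14 µM, the log2 fold change was -1.86 and the gene was not called. In a fit of the 12 libraries alone the adjusted p was 1. Of the RNA-binding regulators of mRNA stability and splicing to which it belongs, 26 of 69 genes had a log2 fold change above 0, with a median of -0.04.

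Itgb8 (chromosome 19) encodes an integrin beta subunit that in mammals pairs with alpha V and binds latent TGF-beta. It had 0.828, 1.01, 1.41, 0.399, 1.88 and 1.84 CPM at 14 µM and 3.01, 2.86, 1.71, 3.06, 3.88 and 4.08 CPM in DMSO. The groups overlapped only in library F of DMSO, which lay below libraries H and I of 14 µM. The log2 fold change was -1.32 ± 0.29 (SE; adjusted p = 0.4), and -1.14 to -1.48 when any library of either group was left out.

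Groups did not overlap at all for ttll5, ptger2a and map3k20, which belong to the 17 genes (0.082%) with all 14 µM libraries below all of DMSO. They were named for a small p in these same libraries, which largely sets such a separation. Ttll5 (chromosome 17, 51940768 to 52053881) encodes a tubulin-modifying enzyme that adds glutamates to tubulin in mammals. Its CPM was 0.376, 0.072, 0.269, 0.332, 0.842 and 0.726 at 14 µM, against 1.83, 1.16, 0.948, 1.06, 1.81 and 1.06 in DMSO (log2 fold change -1.54 ± 0.37, SE; adjusted p = 0.765). Ptger2a (chromosome 17, 14886828 to 14894145), a receptor for prostaglandin E2, had 0.376, 0, 0, 0.199, 0.194 and 0.513 CPM at 14 µM and 0.766, 0.612, 0.711, 1.13, 0.759 and 0.936 CPM in DMSO. These are totals of 23 reads over the 14 µM libraries and 94 over the DMSO libraries. Its log2 fold change was -1.83 ± 0.47 (SE; adjusted p = 0.971). Map3k20 (chromosome 24), a kinase that in mammals senses stalled ribosomes, had 0.677, 0.504, 0.943, 0.665, 1.04 and 1.03 CPM at 14 µM and 1.36, 1.9, 1.42, 1.66, 2.02 and 1.91 CPM in DMSO, with a log2 fold change of -1.07 ± 0.32 (SE).

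Stk38b (chromosome 22) encodes an NDR kinase, a relative of the Hippo pathway kinases. Its CPM was 0.903, 0.648, 1.28, 1.46, 0.583 and 1.5 at 14 µM and 3.12, 3.74, 1.42, 1.99, 1.6 and 2.13 in DMSO, so that library F of DMSO stood below D and I of 14 µM (log2 fold change -1.11 ± 0.33, SE). Fscn2a (chromosome 3), a retinal fascin that bundles actin in photoreceptors and hair cells, had 16.5, 6.98, 12.1, 9.97, 13.3 and 12.6 CPM at 14 µM and 17.4, 14.6, 25.3, 17.1, 16.7 and 15.2 CPM in DMSO. Only library A of 14 µM reached the DMSO range, and library F of DMSO stood apart upwards. The log2 fold change was -0.57 ± 0.17 (SE), and -0.44 without that DMSO library.

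Mtmr10, a member of the myotubularin family (chromosome 7), had 7.6, 7.05, 4.18, 4.92, 5.18 and 6.96 CPM at 14 µM and 9.55, 9.66, 6.78, 11, 8.98 and 10.8 CPM in DMSO, where F again was the lowest and lay among the 14 µM libraries (-0.66 ± 0.20, SE). Lingo4a, of a family of leucine-rich membrane proteins of neurons (chromosome 19), had 0.301, 0.936, 0.539, 0.266, 1.1 and 1.11 CPM at 14 µM and 1.18, 1.02, 0.806, 1.93, 1.98 and 2.38 CPM in DMSO (-1.11 ± 0.33, SE). RIC1, whose human counterpart activates the Golgi GTPase Rab6, had 4.14, 1.3, 2.83, 1.79, 5.12 and 4.02 CPM at 14 µM, against 6.19, 4.83, 5.83, 6.78, 7.29 and 5.44 CPM in DMSO (-0.92 ± 0.27, SE). In the table it lies on the unplaced scaffold KN150529.1. Library H was the only one of 14 µM above any DMSO library for RIC1, and the groups overlapped for lingo4a in 3 libraries of 14 µM. For these 3 genes, stk38b, fscn2a and map3k20 the adjusted p was 0.971.

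**Figure D2:**
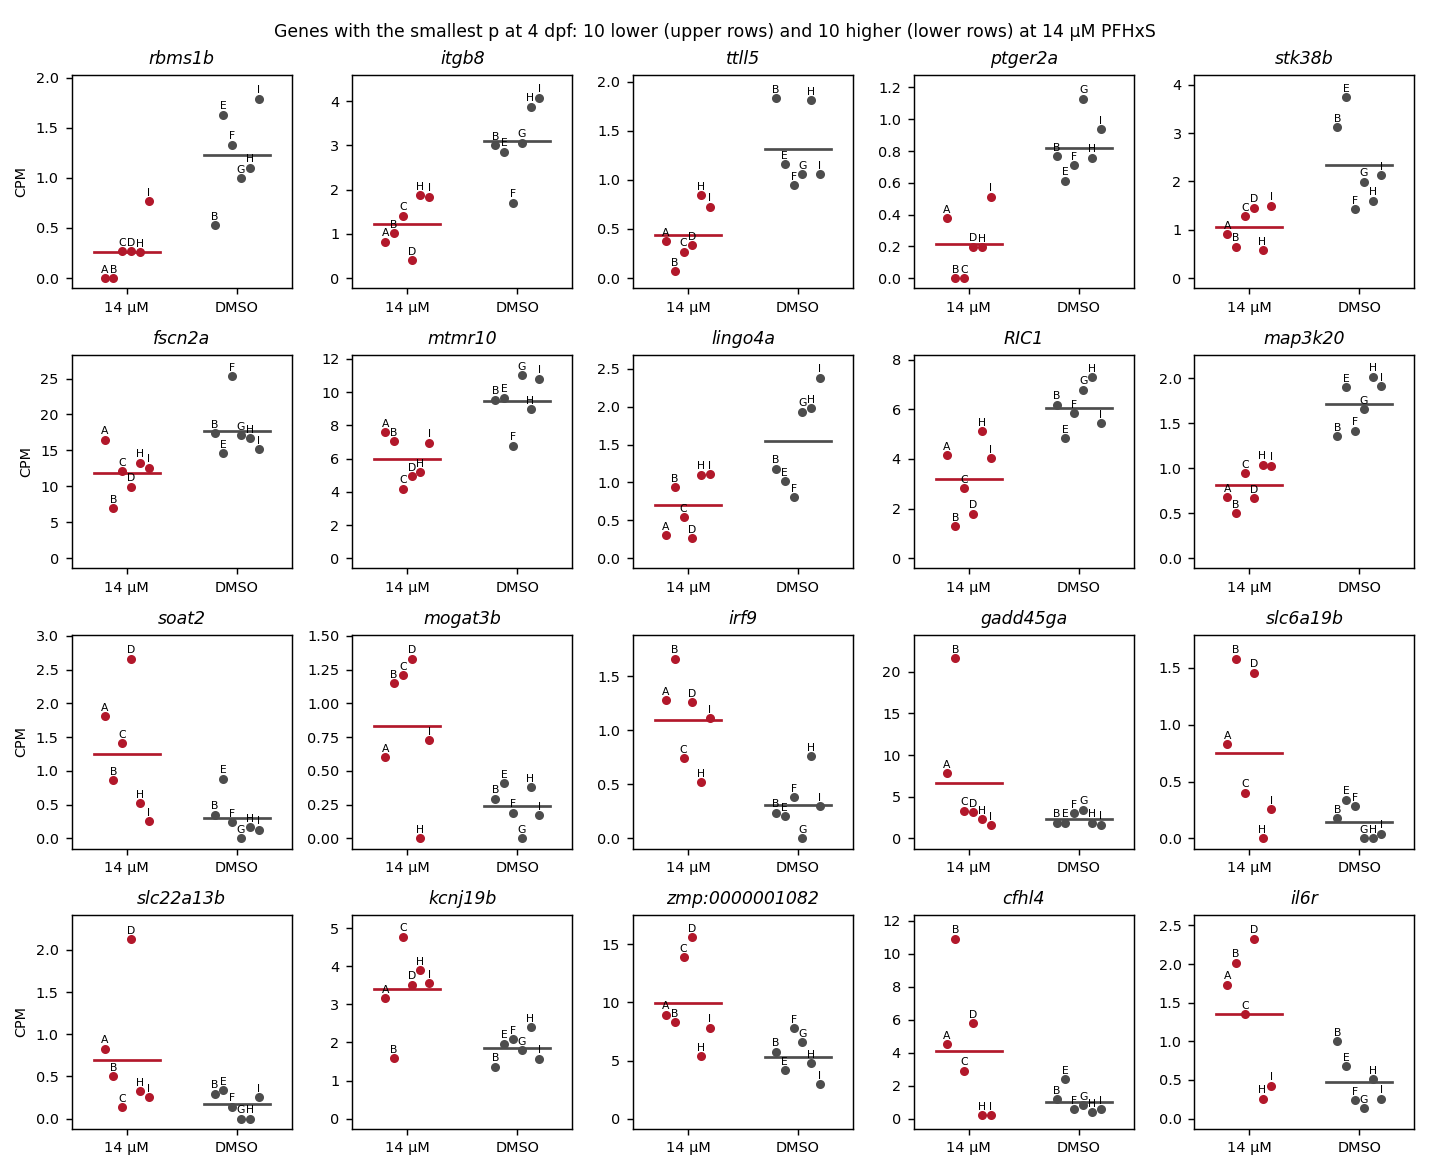
CPM (TMM-scaled) in each library of 14 µM (left, red) and DMSO (right, grey) at 4 dpf for the 10 genes with the smallest p among those lower and the 10 among those higher at 14 µM. Only genes with a descriptive symbol and a mean log2 CPM not below 0 were ranked. Letters name the libraries and lines are group means; ttll5, ptger2a and map3k20 show no overlap, while gadd45ga and cfhl4 have their highest value in library B and soat2 and slc22a13b in library D.

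The genes of smallest p among those higher at 14 µM follow, of those with a descriptive symbol and a mean log2 CPM not below 0. Soat2 (chromosome 6) encodes an enzyme that esterifies cholesterol in mammalian liver and intestine. It had 1.81, 0.864, 1.41, 2.66, 0.518 and 0.256 CPM at 14 µM and 0.354, 0.884, 0.237, 0, 0.169 and 0.128 CPM in DMSO. Library E of DMSO lay above B, H and I of 14 µM. The mean was 4.24 times that of DMSO, with a log2 fold change of 2.11 ± 0.58 (SE). Mogat3b (chromosome 5), a monoacylglycerol acyltransferase of triglyceride synthesis, had 0.602, 1.15, 1.21, 1.33, 0 and 0.726 CPM at 14 µM and 0.295, 0.408, 0.19, 0, 0.379 and 0.17 CPM in DMSO. Of the 14 µM libraries, 5 stood above every DMSO library and H had no read (log2 fold change 1.76 ± 0.50, SE).

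Slc6a19b (chromosome 16), which in mammals carries neutral amino acids across the gut and kidney epithelium, had 0.828, 1.58, 0.404, 1.46, 0 and 0.256 CPM at 14 µM and 0.177, 0.34, 0.285, 0, 0 and 0.0425 CPM in DMSO (2.42 ± 0.71, SE). Slc22a13b (chromosome 24), an organic anion transporter, had 0.828, 0.504, 0.135, 2.13, 0.324 and 0.256 CPM at 14 µM and 0.295, 0.34, 0.142, 0, 0 and 0.255 CPM in DMSO. Its log2 fold change of 2.00 ± 0.59 (SE) was 1.22 without library D of 14 µM. In both genes libraries H and I of 14 µM stayed close to or inside the DMSO range.

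Irf9 (chromosome 12), the DNA-binding part of the interferon-activated factor ISGF3, had 1.28, 1.66, 0.741, 1.26, 0.518 and 1.11 CPM at 14 µM and 0.236, 0.204, 0.379, 0, 0.759 and 0.298 CPM in DMSO (log2 fold change 1.72 ± 0.49, SE). Library H of DMSO was the only one to reach the 14 µM range. Il6r (chromosome 16), the receptor of interleukin-6, had 1.73, 2.02, 1.35, 2.33, 0.259 and 0.427 CPM at 14 µM, against 1, 0.68, 0.237, 0.133, 0.506 and 0.255 CPM in DMSO (1.52 ± 0.47, SE). Cfhl4 (chromosome 22), of the complement factor H family, had 4.51, 10.9, 2.9, 5.78, 0.194 and 0.214 CPM at 14 µM and 1.18, 2.38, 0.569, 0.798, 0.379 and 0.553 CPM in DMSO. Libraries H and I lay below all DMSO libraries and the other 4 above all of them (2.10 ± 0.65, SE).

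Gadd45ga (chromosome 8), a stress-induced gene of the Gadd45 family, had 7.82, 21.6, 3.3, 3.12, 2.33 and 1.58 CPM at 14 µM and 1.89, 1.9, 3.03, 3.46, 1.9 and 1.66 CPM in DMSO. Its log2 fold change of 1.52 ± 0.44 (SE) was 0.64 without library B. Kcnj19b (chromosome 12), of the inward rectifier potassium channel family, had 3.16, 1.58, 4.78, 3.52, 3.89 and 3.55 CPM at 14 µM and 1.36, 1.97, 2.09, 1.79, 2.4 and 1.57 CPM in DMSO (0.87 ± 0.26, SE). Here B was the only library of 14 µM within the DMSO range. A gene known only by a zmp identifier (chromosome 1) had 8.95, 8.28, 13.9, 15.6, 5.38 and 7.82 CPM at 14 µM and 5.77, 4.15, 7.78, 6.58, 4.76 and 2.98 CPM in DMSO, with 5 libraries of 14 µM above all of DMSO (0.90 ± 0.27, SE). The adjusted p was 0.971 for each of these 10 higher genes. Within the first 32 and within the last 16 columns of the count table, the difference in mean log2 CPM had the sign of the whole comparison for 19 of the 20 genes, which the choice of genes by their p in these same libraries largely sets. The exception was mogat3b, with 1.85 and -0.14.

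Genes of digestive organs made up the upper end of the gene lists by median log2 fold change. By difference in list mean, the pancreas (0.11) and intestine (0.02) lists lay below the cytosolic ribosomal list (0.32). The size of their change at 14 µM, and under some settings its sign, depended on single libraries or on the fit. Of all genes 50.7% had a log2 fold change above 0. Of the 40 genes of the liver list, fabp10a among them, 39 did, with a median of 1.34. That median was 0.61 without library D of 14 µM, 1.87 without library E of DMSO, 0.34 in limma and -0.09 with 5 surrogate variables. An unadjusted p under 0.05 was found for 18 of them, all higher (all genes: 2.74%), and no adjusted p was under 0.05. Members of a list can move together by library, so such counts, here and for the lists below, are not counts of independent results. The mean log2 CPM over the list was 2.56, 4.07, 2.90, 4.74, -0.70 and 0.39 in libraries A, B, C, D, H and I of 14 µM, and 2.70, 3.39, 1.51, 1.84, 1.41 and 1.23 in libraries B, E, F, G, H and I of DMSO. The exposed group thus held both the highest libraries, D and B, and the lowest, H and I. The group means were 2.33 ± 2.10 and 2.01 ± 0.85 (SD, n = 6 each), a difference of 0.31 that was -0.17 without library D of 14 µM and 0.92 without H. Within the first 32 columns the difference was 0.92, and within the last 16 it was -1.03. Over the same DMSO libraries, 39 of the 40 genes were above 0 at 25.1 µM (median 1.07) and 38 at 7.87 µM (0.74). List means were 3.09 ± 0.59 at 25.1 µM (2.13 to 3.58) and 2.37 ± 1.22 at 7.87 µM (1.02 to 4.18; SD, n = 6 each). In a bulk sample more cells of a type and more RNA per cell cannot be told apart.

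Single liver genes ran the same way. Fabp10a (chromosome 16), the liver fatty acid binding protein, had 6.4, 48.1, 97, 64.7, 0.454 and 3.08 CPM at 14 µM and 7.42, 31.5, 3.89, 2.73, 3.42 and 1.87 CPM in DMSO. Its log2 fold change was 2.13 ± 0.78 (SE; adjusted p = 0.971); the ratio of means was 4.32, and 2.9 without library C of 14 µM or 9.47 without library E of DMSO. Agt (angiotensinogen) had 2.45 ± 2.68 CPM at 14 µM and 0.64 ± 0.296 CPM in DMSO (SD), and serpina1l, a serine protease inhibitor, 46.1 ± 54.4 and 13.7 ± 11 CPM. The ratio of means of serpina1l, 3.36, was 2.13 without library D of 14 µM. The summed CPM of the 5 defining liver markers was lowest in library H (13.6) and highest in D (1661) at 14 µM, with a median of 489. In DMSO it ran from 70.8 to 722 with a median of 140. Libraries D and B were also the highest, and H and I the lowest, of 14 µM for slc6a19b, cfhl4 and il6r; the part of liver content in those genes was not tested.

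The exocrine pancreas list had 16 of 20 genes above 0 with a median of 0.51, and none with an unadjusted p under 0.05. List means were 1.57, 1.28, 0.81, 2.42, -1.81 and -2.02 at 14 µM and 0.02, 2.34, 0.53, 0.34, -0.95 and -0.68 in DMSO. The 2 lowest and the highest values were those of 14 µM, library E of DMSO lay close to D of 14 µM, and the difference of the means was 0.11, or -0.30 without D. The median of the list was -0.11 without D, 1.45 without library E of DMSO, -1.28 with surrogate variables and 2.61 with the letter as a replicate block, so that its direction depended on the setting. The trypsinogen gene prss1 had 5.06 ± 3.82 CPM at 14 µM and 3.72 ± 2.71 CPM in DMSO (SD), carboxypeptidase cpa5 13.2 ± 14.9 and 4.93 ± 4.53 CPM, pdia2, a pancreatic disulphide isomerase in mammals, 0.823 ± 0.998 and 0.258 ± 0.288 CPM, and the bile salt lipase gene cel.2 2.85 ± 3.64 and 1.18 ± 1 CPM. All 4 genes had their lowest value at 14 µM in library H or I. Ratios of means were 2.69 for cpa5, 3.19 for pdia2 and 2.41 for cel.2. They were 1.56 and 1.38 for cpa5 and cel.2 without library D of 14 µM, and 1.82 for pdia2 without library B.

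The intestine list had 20 of 31 genes above 0, a median of 0.41 and 2 genes with an unadjusted p under 0.05, slc6a19b and the apolipoprotein gene apoa4a (all genes: 2.74% higher). The median was -0.01 without library D of 14 µM, 1.05 without library E of DMSO and -0.72 with surrogate variables. Apoa4a rested on 29 reads at 14 µM, in 3 libraries, and 4 reads in DMSO, all in library E. Alkaline phosphatase alpi.1 had 17.6 ± 8.22 CPM at 14 µM and 13.2 ± 2.35 CPM in DMSO (SD). List means were 0.11, 0.20, 0.34, 1.25, -1.62 and -1.43 at 14 µM and -0.04, 1.17, -0.48, -0.32, -1.06 and -0.54 in DMSO, and their difference was 0.02. Nr5a5, an orphan nuclear receptor gene, had 2.26, 1.15, 1.48, 3.86, 0.0648 and 0.726 CPM at 14 µM and 0.766, 1.43, 0.474, 0.332, 0.126 and 0.851 CPM in DMSO (log2 fold change 1.27 ± 0.62, SE, and 0.78 without D).

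**Figure D3:**
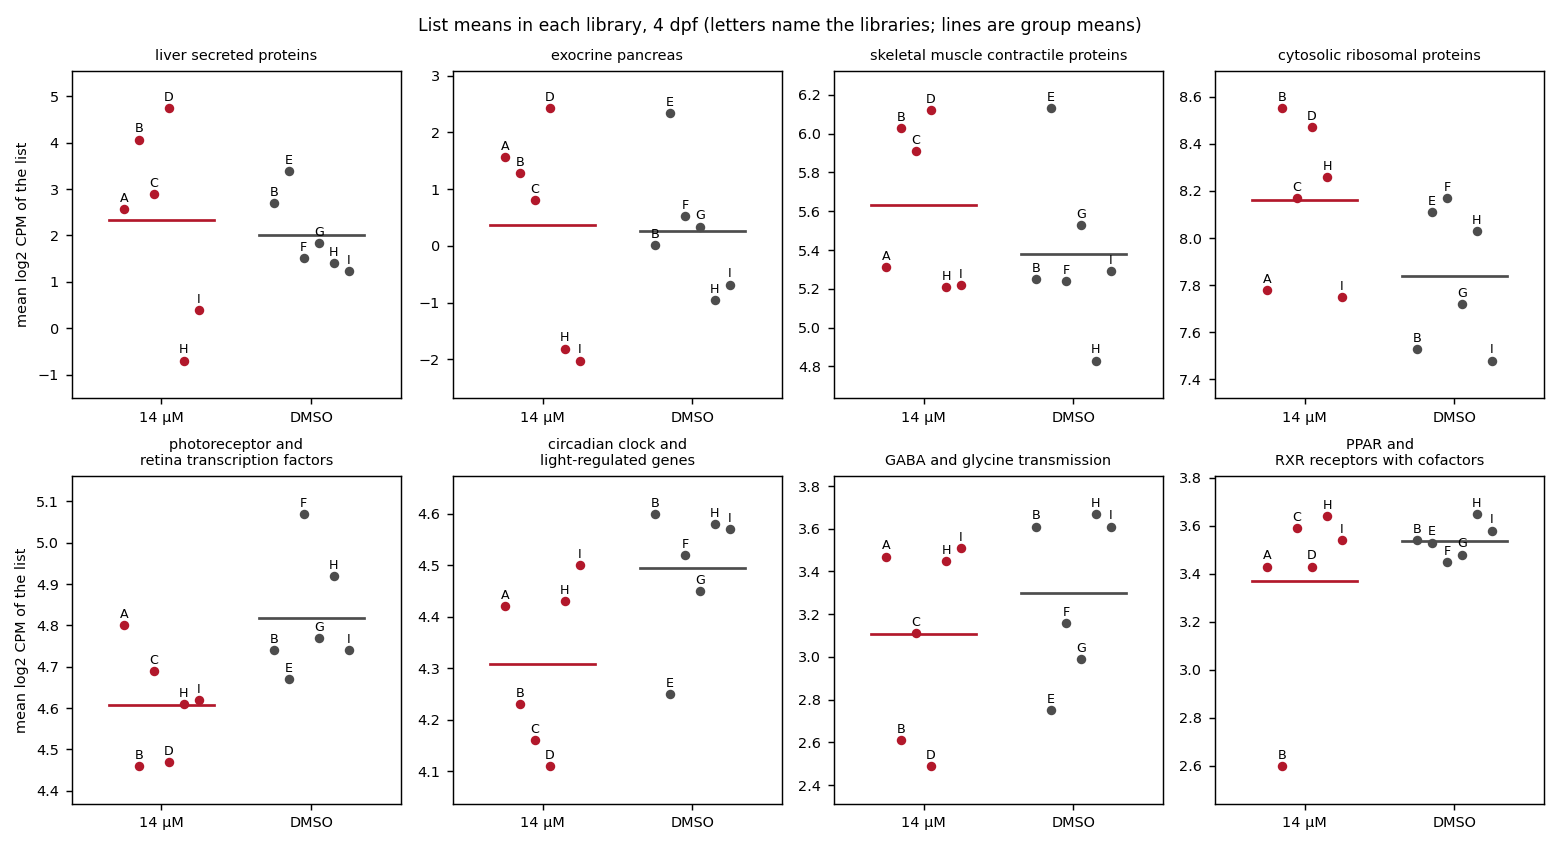
Mean log2 CPM of 8 gene lists in each library of 14 µM (left, red) and DMSO (right, grey) at 4 dpf; letters name the libraries, lines are group means, and each panel has its own axis. In the liver panel the 14 µM libraries B and D lie above the DMSO range and H and I below it. In the pancreas panel D lies just above the DMSO range and H and I below it. In the PPAR and RXR panel library B lies alone at 2.60.

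Lists of red cell and heart genes had medians above 0, which came near 0 under some settings. Of 23 globin and red cell genes 21 were above 0, with a median of 0.27, and 5 had an unadjusted p under 0.05, all higher (all genes: 2.74%). The median was 0.12 without library D of 14 µM and 0.05 with surrogate variables. The embryonic alpha globin genes hbae1.1, hbae1.3 and hbae3 had 14.3 ± 13.2, 704 ± 411 and 186 ± 96 CPM at 14 µM and 6.3 ± 1.72, 393 ± 110 and 110 ± 46.4 CPM in DMSO (SD). In each, libraries B and D of 14 µM were above every DMSO library. Globin copies are near-identical, and how shared reads were counted is not given in the sources used here, so single members are uncertain. Of 32 heart muscle genes 22 were above 0, with a median of 0.21 that was 0.03 without D of 14 µM and 0.46 without E of DMSO. Actc1a, an actin gene of heart and early muscle, had 2844, 4434, 3577, 5337, 1833 and 1476 CPM at 14 µM and 2176, 2479, 1518, 2213, 1334 and 1561 CPM in DMSO, with libraries A, B, C and D above every DMSO library (log2 fold change 0.79 ± 0.25, SE; adjusted p = 0.971). The cardiac myosin light chain gene cmlc1 had 4.85 ± 3.68 and 2.55 ± 1.75 CPM and cardiac troponin T gene tnnt2a 3.15 ± 3.08 and 1.52 ± 0.708 CPM at 14 µM and in DMSO (SD). The ratio of means of tnnt2a, 2.07, was 1.28 without library B of 14 µM.

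The heart list mean differed by 0.47 in the first 32 columns and by -0.35 in the last 16. Skeletal muscle contractile genes had 70 of 86 above 0, a median of 0.23 and 10 with an unadjusted p under 0.05, all higher (all genes: 2.74%). Their list mean differed by 0.58 and -0.19 in those 2 sets of columns. For kidney and ionocyte genes the count was 15 of 26 above 0, with a median of 0.06 and a difference in list mean of -0.01, which have opposite signs. The phosphate transporter gene slc20a1a had 22.1 ± 20.9 CPM at 14 µM and 12.2 ± 5.7 CPM in DMSO (SD), where D held 62 CPM and the ratio of means, 1.82, was 1.17 without it. The podocyte gene nphs1 (nephrin) had 2.52 ± 1.72 CPM at 14 µM and 1.46 ± 0.302 CPM in DMSO.

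Most genes of protein synthesis and respiration had a log2 fold change above 0. Of 82 cytosolic ribosomal protein genes 78 were above 0, with a median of 0.37, and 11 had an unadjusted p under 0.05, all higher (all genes: 2.74%). List means were 7.78, 8.55, 8.17, 8.47, 8.26 and 7.75 at 14 µM and 7.53, 8.11, 8.17, 7.72, 8.03 and 7.48 in DMSO, so that B, D and H of 14 µM stood above every DMSO library and A and I inside the DMSO range. The difference of 0.32 was 0.38 in the first 32 columns and 0.19 in the last 16, and lay between 0.24 and 0.41 without any library. Rpl37 had 235, 459, 279, 430, 229 and 140 CPM at 14 µM and 137, 205, 206, 179, 182 and 133 CPM in DMSO (log2 fold change 0.76 ± 0.30, SE). Rplp2l had 748 ± 596 CPM at 14 µM and 399 ± 71.9 CPM in DMSO, with 1868 CPM in library B, and rpl18 592 ± 265 and 408 ± 84.8 CPM (SD).

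The 88 nuclear genes of respiratory chain subunits included 78 above 0, with a median of 0.27, and 7 with an unadjusted p under 0.05, all higher (all genes: 2.74%). Cox6a1, a subunit of cytochrome c oxidase, had 172, 238, 183, 233, 142 and 99.7 CPM at 14 µM and 110, 136, 142, 121, 126 and 92.4 CPM in DMSO (0.55 ± 0.18, SE; adjusted p = 0.971). Libraries A, B, C and D were above all of DMSO, and I was within its range. Another subunit of that oxidase, cox5ab, had 429 ± 162 CPM at 14 µM and 274 ± 63.7 CPM in DMSO, and complex I subunit ndufa5 113 ± 44.1 and 67.5 ± 10.9 CPM (SD). Mitochondrial ribosomal protein genes had 61 of 75 above 0 (median 0.24). With 5 surrogate variables in the fit the medians of the cytosolic ribosomal and respiratory lists were 0.07 and 0.03.

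**Figure D4:**
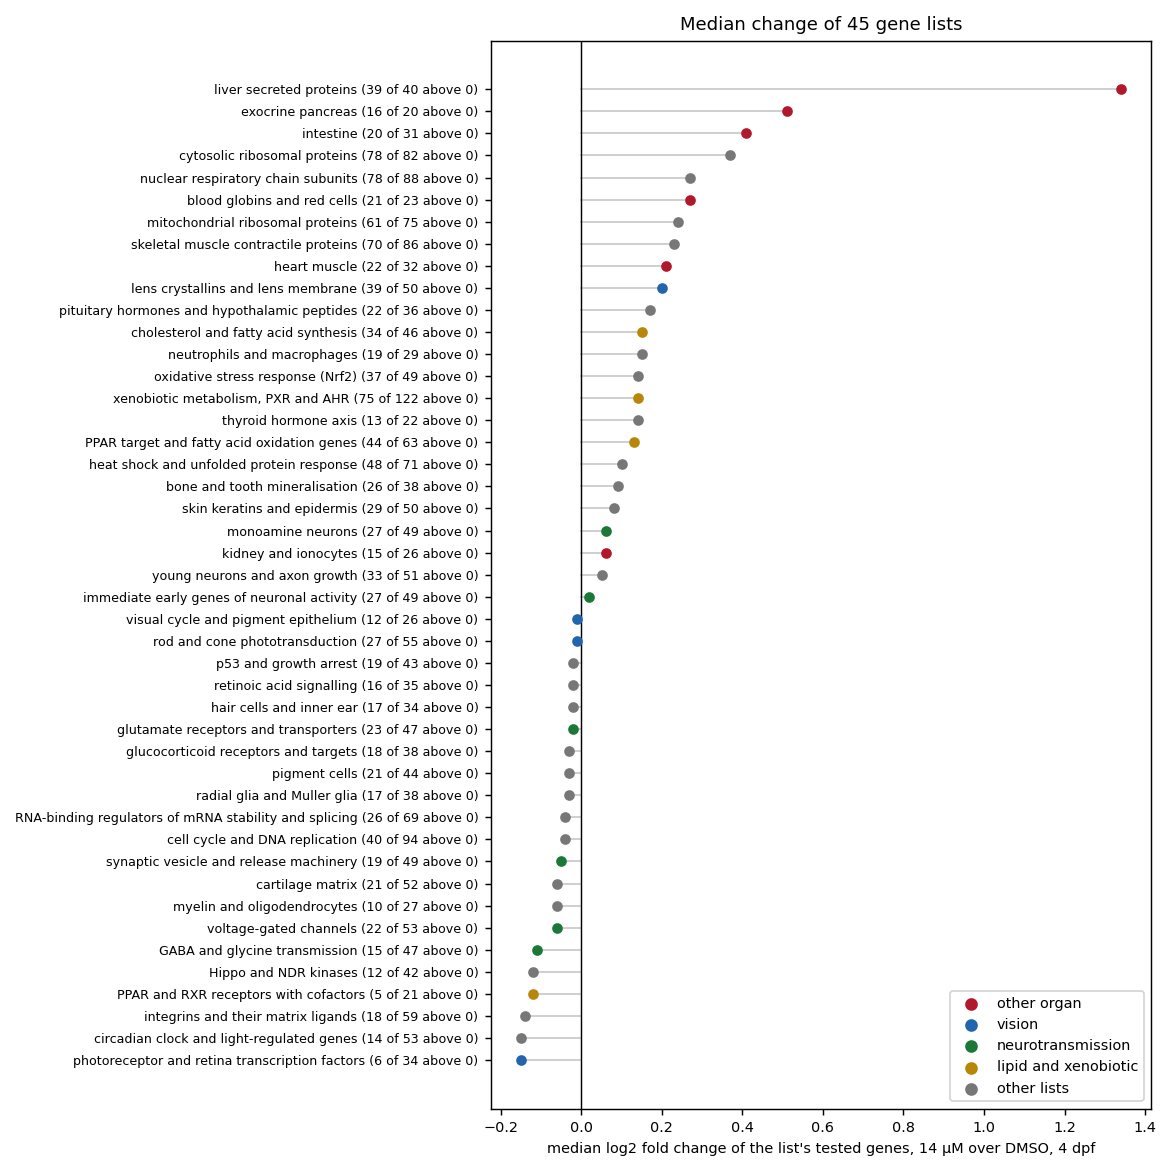
Median log2 fold change (14 µM over DMSO, 4 dpf) of the tested genes of 45 lists, coloured by kind, with the number of members above 0 beside each name. The liver list lies apart at 1.34; 24 lists lie above 0 and 21 below, and the lowest 2 lie at -0.15.

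Among the lists of eye genes, measured in whole heads, retina transcription factors lay at the lower end of all lists while phototransduction genes did not. Of 34 photoreceptor and retina transcription factor genes 6 were above 0, with a median of -0.15, and 3 had an unadjusted p under 0.05, all lower (all genes: 2.31%). List means were 4.80, 4.46, 4.69, 4.47, 4.61 and 4.62 at 14 µM and 4.74, 4.67, 5.07, 4.77, 4.92 and 4.74 in DMSO. Libraries B, D, H and I of 14 µM were below every DMSO library. The difference of -0.21 was -0.34 within the first 32 columns and -0.07 within the last 16, and was between -0.24 and -0.16 without any library. Six7 (chromosome 7), which drives green cone opsin expression in zebrafish, had 40.7, 22.7, 36.2, 27.9, 39.7 and 37.5 CPM at 14 µM and 37.2, 51.4, 58.9, 45, 49.1 and 38 CPM in DMSO. Libraries B, C and D of 14 µM were below every DMSO library (log2 fold change -0.45 ± 0.16, SE; adjusted p = 0.971). The nuclear receptor gene rorb had 2.28 ± 0.884 CPM at 14 µM and 4.09 ± 1.23 CPM in DMSO, and tbx2a, a T-box gene of cone fate, 33.8 ± 4.56 and 44.6 ± 5.71 CPM (SD).

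Rod and cone phototransduction genes were evenly split, 27 of 55 above 0 with a median of -0.01, and 4 had an unadjusted p under 0.05, all lower (all genes: 2.31%). The rod exchanger gene slc24a1 had 8.23 ± 2.9 CPM at 14 µM and 12 ± 2.86 CPM in DMSO, the photoreceptor guanylate cyclase gene gucy2d 204 ± 41.9 and 272 ± 49.1 CPM, and the rod channel gene cngb1a 12.6 ± 3.37 and 17.3 ± 2.74 CPM (SD). For cngb1a 5 of the 6 libraries of 14 µM were below all of DMSO. The rhodopsin gene rho had 21401, 22908, 17577, 17275, 19659 and 11052 CPM at 14 µM and 12442, 17507, 12896, 15708, 19772 and 11309 CPM in DMSO, and its log2 fold change was 0.29 ± 0.27 (SE; adjusted p = 1). Its groups overlapped widely.

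Visual cycle and pigment epithelium genes had 12 of 26 above 0 and a median of -0.01. Abca4b (chromosome 2), the retinal transporter of photoreceptor outer segments, had 104, 51.2, 77.9, 100, 93.6 and 93.6 CPM at 14 µM and 106, 112, 139, 146, 134 and 101 CPM in DMSO. All libraries of 14 µM but A were below all of DMSO (log2 fold change -0.50 ± 0.17, SE; adjusted p = 0.971). Its paralogue abca4a had 32.6 ± 7.24 and 39.8 ± 5.64 CPM at 14 µM and in DMSO. Rgs16, a regulator of G protein signalling, had 5.29 ± 7.02 CPM at 14 µM and 2.93 ± 0.849 CPM in DMSO (SD), but the ratio of means was 0.86 without library B. Lens genes had 39 of 50 above 0 with a median of 0.20. The crystallin gene cryba4 had 1474 ± 910 CPM at 14 µM and 999 ± 343 CPM in DMSO, the lens membrane gene lim2.2 0.955 ± 0.648 and 0.392 ± 0.173 CPM, and the lens aquaporin gene mipb 725 ± 165 and 873 ± 226 CPM. Crystallin copies carry the same uncertainty as the globins.

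The neuronal lists had medians near 0, while their differences in list mean reached -0.25, for voltage-gated channels. Of 47 GABA and glycine genes 15 were above 0 (median -0.11), and none had an unadjusted p under 0.05. The list means were 3.47, 2.61, 3.11, 2.49, 3.45 and 3.51 at 14 µM and 3.61, 2.75, 3.16, 2.99, 3.67 and 3.61 in DMSO. Libraries B and D of 14 µM were the lowest of all, and those were the libraries with the highest liver means. The difference of -0.19 was -0.45 within the first 32 columns and 0.21 within the last 16. The receptor subunit gene gabra5 had 2.11 ± 0.981 CPM at 14 µM and 3 ± 0.971 CPM in DMSO (SD).

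For glutamate receptors and transporters the count was 23 of 47 above 0 and the median -0.02. The vesicular transporter gene slc17a7b had 12.8 ± 5.14 CPM at 14 µM and 18 ± 2.83 CPM in DMSO, the uptake transporter slc1a2a 54.9 ± 20.9 and 72.3 ± 17.3 CPM, and the kainate receptor gene grik4 10.4 ± 5.42 and 8.04 ± 2.76 CPM. Synaptic vesicle and release genes had 19 of 49 above 0 (median -0.05), with doc2b at 17.9 ± 6.52 and 24 ± 5.85 CPM, sv2ba at 82.5 ± 27.6 and 105 ± 19.7 CPM and sv2c at 2 ± 0.753 and 3.22 ± 1.83 CPM at 14 µM and in DMSO (SD). The list mean of voltage-gated channels differed by -0.25, by -0.38 within the first 32 columns and by 0.09 within the last 16. Without library B of 14 µM the difference was -0.06. Of these channel genes 22 of 53 were above 0 (median -0.06). Among them cacna1fa (chromosome 8), the calcium channel of photoreceptor synapses, had 17.2, 7.77, 6.2, 10.2, 9.14 and 10.4 CPM at 14 µM and 16.4, 14.4, 16.5, 18.1, 20.6 and 18.1 CPM in DMSO. Apart from library A, the 14 µM libraries were below all of DMSO (log2 fold change -0.77 ± 0.27, SE; adjusted p = 0.971). The potassium channel gene kcna2b had 0.276 ± 0.269 CPM at 14 µM and 0.715 ± 0.345 CPM in DMSO (SD).

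Monoamine neuron genes had 27 of 49 above 0, with a median of 0.06 and a difference in list mean of -0.08. The serotonin transporter gene slc6a4b had 0.209 ± 0.211 CPM at 14 µM and 0.606 ± 0.434 CPM in DMSO, the histamine receptor gene hrh2a 0.497 ± 0.356 and 0.156 ± 0.121 CPM, and fev, a transcription factor of serotonin neurons, 0.537 ± 0.339 and 0.239 ± 0.249 CPM (SD). Immediate early genes of neuronal activity had 27 of 49 above 0 (median 0.02, difference in list mean -0.03), and beside gadd45ga the smallest p belonged to per1a, with 21.6 ± 10.6 and 27.3 ± 4.58 CPM, and dusp1, with 23 ± 4.63 and 29.1 ± 6.48 CPM. Of the genes of the circadian clock and light response 14 of 53 were above 0, with a median of -0.15. Their list means were 4.42, 4.23, 4.16, 4.11, 4.43 and 4.50 at 14 µM and 4.60, 4.25, 4.52, 4.45, 4.58 and 4.57 in DMSO. All libraries of 14 µM but I were below all of DMSO except E. The clock repressor genes per3 and cry1ba had 76.9 ± 21.5 and 46.6 ± 6.23 CPM at 14 µM and 99.2 ± 19.5 and 56.4 ± 7.27 CPM in DMSO (SD). The labels give no hour of collection.

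PPARs are nuclear receptors that pair with retinoid X receptors (RXRs) and switch on fatty acid oxidation genes. Of 21 genes of these receptors and their cofactors 5 were above 0 (median -0.12). The list mean was 3.43, 2.60, 3.59, 3.43, 3.64 and 3.54 at 14 µM and 3.54, 3.53, 3.45, 3.48, 3.65 and 3.58 in DMSO. Library B of 14 µM lay far below the rest, and without it the difference was -0.01 and the median of the list 0.01. The receptor gene pparab had 0.451, 0, 0.741, 1.33, 0.907 and 0.854 CPM at 14 µM and 1.24, 1.09, 1.09, 1.86, 1.1 and 1.06 CPM in DMSO, with 5 libraries of 14 µM below all of DMSO (log2 fold change -0.77 ± 0.36, SE; adjusted p = 0.971). Rxrba had 28.7 ± 8.97 CPM at 14 µM and 37.8 ± 5.49 CPM in DMSO, with 11.6 CPM in B, and the coactivator gene ncoa3 19 ± 4.01 and 21.3 ± 3.09 CPM (SD).

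Among 63 PPAR target and fatty acid oxidation genes 44 were above 0, with a median of 0.13, and 5 had a higher and 1 a lower level at an unadjusted p under 0.05 (all genes: 2.74% and 2.31%). The median was 0.05 without library D of 14 µM and -0.08 with surrogate variables. For the known PPAR targets angptl4 and cpt1b no difference was detectable at this spread. Angptl4 had 22, 35.3, 9.7, 27.8, 6.48 and 13.9 CPM at 14 µM and 15.3, 14.2, 20.3, 20.6, 11 and 17.4 CPM in DMSO (0.22 ± 0.33, SE; adjusted p = 1). Cpt1b, of mitochondrial fatty acid import, had 4.36, 6.84, 7.81, 15.8, 5.64 and 5.25 CPM at 14 µM and 6.84, 11.9, 7.11, 7.98, 2.87 and 6.17 CPM in DMSO (0.10 ± 0.27, SE; adjusted p = 1). The smallest p in the list belonged to fabp10a and to the cytochrome P450 genes cyp4v8 and cyp4v7, which had 5.15 ± 5.72 and 1.84 ± 1.87 CPM at 14 µM and 1.47 ± 1 and 0.427 ± 0.472 CPM in DMSO (SD). All 3 were highest in library C or D and lowest in H, and their ratios of means with D left out were 2.19 for cyp4v8 and 2.96 for cyp4v7.

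Sterol and fatty acid synthesis genes had 34 of 46 above 0 (median 0.15), 3 with an unadjusted p under 0.05, all higher (all genes: 2.74%). The median was 0.05 without library D of 14 µM and -0.05 with surrogate variables. The 3 genes were soat2, the sterol carrier gene stard4, with 102, 152, 94.1, 152, 60.2 and 42.3 CPM at 14 µM and 45.4, 86.3, 64.6, 67.7, 59.7 and 42 CPM in DMSO, and squalene epoxidase gene sqlea, with 8.09 ± 4.06 and 4.72 ± 1.49 CPM (SD). For stard4, libraries A to D were above all of DMSO, while H and I were inside its range (0.72 ± 0.27, SE; adjusted p = 0.971). Of 122 genes of xenobiotic metabolism and its receptors PXR and AHR, 75 were above 0, with a median of 0.14, and 9 had a higher and 2 a lower level at an unadjusted p under 0.05 (all genes: 2.74% and 2.31%). The median was -0.01 without library B of 14 µM and -0.16 with surrogate variables. The glucuronosyltransferase genes ugt2a6 and ugt2a7 had 1.45 ± 0.902 and 4.05 ± 5.03 CPM at 14 µM and 0.444 ± 0.304 and 1.33 ± 0.665 CPM in DMSO. The ratio of means of ugt2a7, 3.05, was 1.57 without library D of 14 µM. For the glutathione transferase gene gsta.2 there was 1 read in the 14 µM libraries and 24 in those of DMSO, 12 of them in 1 library. Cyp1a, the main target of the dioxin receptor AHR, had 1.13, 5.18, 2.29, 11.2, 0.324 and 1.03 CPM at 14 µM and 1.59, 2.65, 2.04, 1.4, 0.717 and 0.808 CPM in DMSO. Its ratio of means of 2.29 was 1.3 without library D. Fkbp5, a target of the glucocorticoid receptor, had 31.4 ± 19 CPM at 14 µM and 32.1 ± 16.6 CPM in DMSO (SD).

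The lower end of the lists also held adhesion and Hippo pathway genes, in lists chosen with earlier results of these data known. They hold itgb8 and stk38b, which are among the leading lower genes, so the lists are not separate support for those genes. Integrins and their matrix ligands had 18 of 59 above 0 (median -0.14). Itgb8 is described above. An unadjusted p under 0.05 was found for 4 higher and 3 lower members (all genes: 2.74% and 2.31%). The median was -0.06 without E of DMSO and 0.01 with surrogate variables. After itgb8 the smallest p belonged to members that were higher: vtnb, the plasma protein vitronectin and also a member of the liver list, had 10.4 ± 11.6 CPM at 14 µM and 3.73 ± 1.81 CPM in DMSO (ratio of means 2.78, and 1.85 without D of 14 µM), and the platelet integrin gene itga2b rested on 13 and 3 reads. Hippo and NDR kinase genes had 12 of 42 above 0 (median -0.12) and 3 with an unadjusted p under 0.05, all lower (all genes: 2.31%). The median was -0.05 with surrogate variables. Beside stk38b these were vgll4a, a cofactor that competes with YAP for TEAD factors, with 0.99 ± 0.508 CPM at 14 µM and 2.1 ± 0.505 CPM in DMSO, and the kinase gene lats1, with 8.98 ± 2.06 and 11.5 ± 1.66 CPM (SD). The list means were 3.17, 2.96, 2.96, 3.26, 3.26 and 3.17 at 14 µM and 3.34, 3.24, 3.35, 3.37, 3.21 and 3.31 in DMSO. In A, B, C and I of 14 µM they were below all of DMSO, and the difference of -0.17 lay between -0.20 and -0.14 without any library.

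Set directly against the other concentrations at 4 dpf, 14 µM differed by no gene at an adjusted p under 0.05 in edgeR. Against 25.1 µM, 620 of 20723 genes (2.99%) had an unadjusted p under 0.05, 306 higher and 314 lower at 14 µM (1018 in all without library D of 14 µM), and neither DESeq2 nor limma called a gene (0% by edgeR). The smallest p belonged to fam49bb (log2 fold change 1.59 ± 0.39, SE) and gadd45ga (1.74 ± 0.45), higher at 14 µM, and among genes lower there to ttll5 (-1.32 ± 0.37), each with an adjusted p of 1. Gadd45ga had 6.63 ± 7.65 CPM at 14 µM and 1.95 ± 0.828 CPM at 25.1 µM (SD, n = 6 each). All 20 exocrine pancreas genes had a lower level at 14 µM, with a median of -1.04, and 5 of 31 intestine genes were above 0 (-0.50). The libraries overlapped widely in both lists. Pancreas list means were 0.38 ± 1.85 at 14 µM (-2.02 to 2.42) and 1.58 ± 1.43 at 25.1 µM (-0.38 to 2.92; SD). Those of the intestine were -0.19 ± 1.11 and 0.50 ± 0.78. Glutamate genes had 39 of 47 above 0 (0.23) and cytosolic ribosomal genes 77 of 82 (0.22), where 51.4% of all genes were above 0. Against 7.87 µM, 1663 genes (8.02%) had an unadjusted p under 0.05, 342 higher and 1321 lower at 14 µM, a number that lay between 733 and 2745 when libraries H and B of 7.87 µM were left out in turn. DESeq2 called jagn1a, lower at 14 µM (-1.49 ± 0.30, SE; edgeR adjusted p = 0.219), limma called none, and edgeR called jagn1a and yeats4 when library B of 14 µM was left out. The libraries of 7.87 µM varied most, with a median SD of 0.586. Against 7.87 µM, 22 of 82 cytosolic ribosomal genes (median -0.19) and 30 of 88 respiratory chain genes (-0.14) were above 0 (all genes: 48.5%). Glutamate genes had 32 of 47 above 0 (0.09) and exocrine pancreas genes 8 of 20 (-0.06). Over DMSO the ribosomal median was 0.51 at 7.87 µM, with all 82 genes above 0, beside 0.37 at 14 µM.

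The mean level of each of the 10 leading lower genes was lower at 14 µM than at 7.87 and at 25.1 µM. Rbms1b had 1.23 ± 0.457 CPM in DMSO, 0.598 ± 0.202 at 7.87 µM, 0.261 ± 0.281 at 14 µM and 0.726 ± 0.312 at 25.1 µM (SD, n = 6 each). The log2 difference of 14 µM from 25.1 µM was -1.35 ± 0.44 (adjusted p = 1) and that from 7.87 µM -1.06 ± 0.45 (adjusted p = 0.502). For ptger2a the means were 0.819 ± 0.185, 0.922 ± 0.509, 0.214 ± 0.204 and 0.51 ± 0.3 CPM in that order, and for stk38b 2.34 ± 0.909, 2.39 ± 1.33, 1.06 ± 0.405 and 2.12 ± 0.744 CPM. Since the genes were picked for low values at 14 µM, that order among concentrations is partly set by the choice. The higher genes differed among themselves: log2 fold changes over the shared DMSO libraries at 7.87, 14 and 25.1 µM were 0.77, 2.11 and 2.03 for soat2, 2.30, 2.42 and 2.38 for slc6a19b, 1.45, 1.72 and 0.64 for irf9 and 1.04, 1.52 and -0.22 for gadd45ga.

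**Figure D5:**
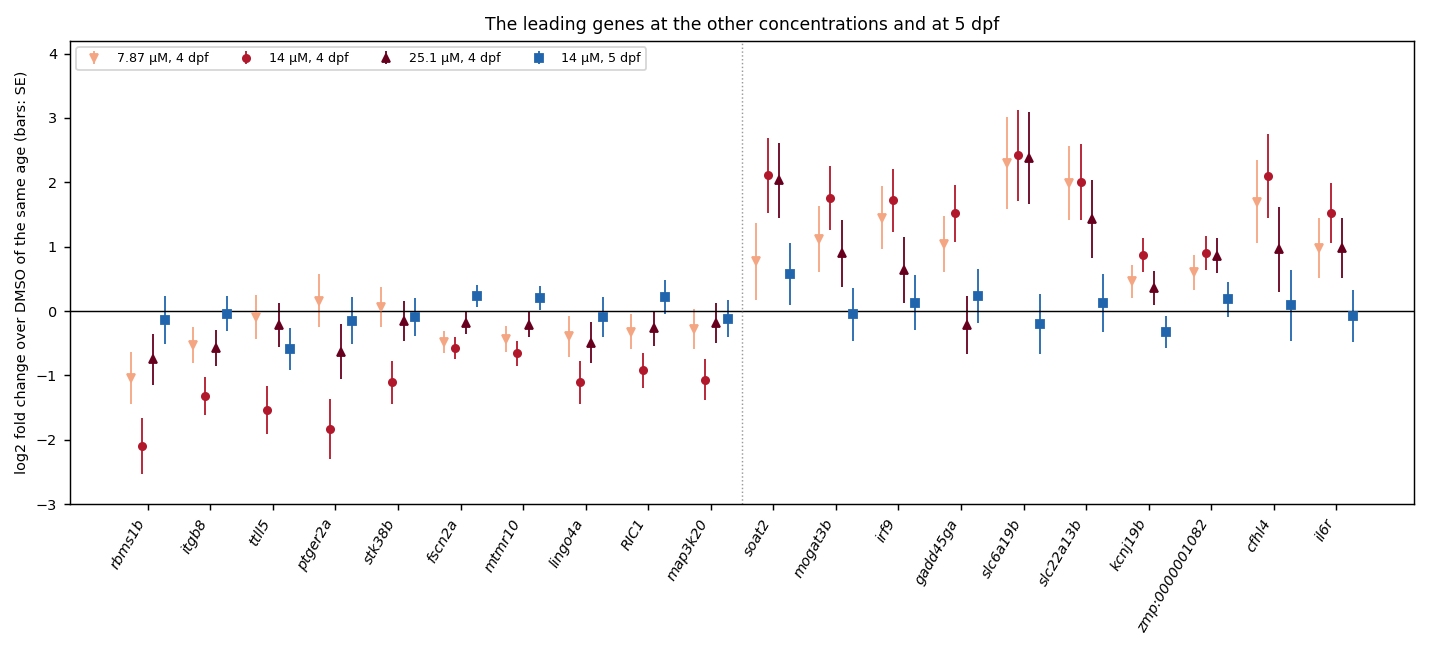
Log2 fold change over DMSO of the same age (points; bars are SE) of the 20 leading genes at 7.87, 14 and 25.1 µM at 4 dpf and at 14 µM at 5 dpf; the dotted line parts the genes chosen as lower from those chosen as higher. The 4 dpf points share the DMSO libraries; the 5 dpf points, from other libraries, lie between -0.59 and 0.57.

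At 5 dpf the leading genes of 4 dpf showed no difference of that size. These libraries share none with those at 4 dpf. Of the 10 lower genes 3 and of the 10 higher genes 6 had a log2 fold change above 0 at 5 dpf (all genes: 53.7%), with ranges of -0.59 to 0.24 and -0.33 to 0.57, and none had an unadjusted p under 0.05. Rbms1b had 1.35 ± 0.39 CPM at 14 µM and 1.49 ± 0.266 CPM in DMSO at 5 dpf, itgb8 3.18 ± 0.867 and 3.29 ± 0.207 CPM, and soat2 1.92 ± 1.3 and 1.3 ± 0.465 CPM (SD, n = 6 each). Over all genes the 5 dpf comparison had 0 genes at an adjusted p under 0.05 in edgeR (0%) and 151 at an unadjusted p under 0.05 (0.729%; 292 without library G of 14 µM, 229 without library C of DMSO), with none called by DESeq2 or limma. The 2 ages shared 9 genes with an unadjusted p under 0.05, which is 0.86% of those at 4 dpf and 5.96% of those at 5 dpf. These shares are close to those among all genes, 0.729% at 5 dpf and 5.05% at 4 dpf. Of the 9 genes 4 had the same direction. Hbae3 was among these 4, with log2 fold changes of 0.76 at 4 dpf and 0.65 at 5 dpf. Six7 was among the rest of the 9, with -0.45 and 0.48. Across genes the fold changes of the 2 ages had a Pearson r of 0.0222 and a Spearman rho of 0.0613, given as a description only.

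The difference of the 14 µM effect between 4 and 5 dpf was tested as an interaction, which called 0 genes (0%) in edgeR, DESeq2 and limma, with 478 at an unadjusted p under 0.05 (2.31%), and 729 without library I of 14 µM at 4 dpf. Six7 had the smallest p among genes with an average log2 CPM of at least 0 that were lower in this difference (-0.93 ± 0.23, SE; adjusted p = 1). Its level at 5 dpf was 52.2 ± 9.95 CPM at 14 µM and 37.4 ± 7.63 CPM in DMSO (SD), a log2 fold change of 0.48 ± 0.16, where that at 4 dpf was -0.45 ± 0.16. Rbms1b (-1.96 ± 0.57) and fscn2a (-0.81 ± 0.24) followed, abca4b had 77.7 ± 10.7 CPM at 14 µM and 65.1 ± 8.69 CPM in DMSO at 5 dpf (-0.76 between ages), and cacna1fa 8.35 ± 1.55 and 7.35 ± 1.44 CPM (-0.96). Phototransduction genes had 27 of 55 above 0 at 4 dpf and 51 of 55 at 5 dpf, with medians of -0.01 and 0.17. The liver list had 39 of 40 above 0 at 4 dpf and 8 of 40 at 5 dpf, with medians of 1.34 and -0.18, and list means at 5 dpf of 4.96 ± 0.87 at 14 µM and 5.34 ± 0.30 in DMSO (SD). Integrins and their ligands had 18 of 59 above 0 at 4 dpf and 48 of 59 at 5 dpf. No test of these lists between ages was made.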

How the data were processed

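PolyA RNA of pooled zebrafish heads was sequenced, 12 libraries for this comparison out of 48 fitted. The deposited table of expected counts holds reads per gene estimated by the authors, not normalized, for 25445 genes (77.5% of values whole within 1e-09); a second table, also deposited by the authors, gives quantile-normalized log2 values for 19844 genes. Partek 8.0.19.0428, STAR 2.5.3a and the build GRCz11 are named, per the submitters' processing notes; their roles, the annotation and the handling of strand and shared reads are not given in the sources used here, so paralogues and antisense partners are uncertain. Coordinates come from the table of counts.

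Expected counts were rounded, genes kept by filterByExpr on 8 groups (20723), and scaled by TMM. All 48 libraries entered 1 model of 8 group means, which share 1 estimate of the spread, in edgeR 4.0.16 (R 4.3.3), quasi-likelihood F test, with Benjamini-Hochberg adjustment over all genes and a threshold of 0.05. The biological coefficient of variation was 0.361. The spread differed between groups, with median SDs of log2 CPM of 0.51 at 14 µM and 0.338 in DMSO at 4 dpf. At 5 dpf they were 0.346 and 0.264. SEs and p-values of the 4 dpf comparison may therefore be too small. The SE is the size of the log2 fold change divided by the square root of F. Log2 CPM used a prior count of 2. The fit was tested on simulated data. These had the same dispersion per gene in every group and genes drawn independently. They therefore cannot show how the fit behaves with unequal spreads or with lists that move together by library. Library measures were compared by an exact permutation test over 924 assignments, whose smallest p is 0.00216. Of the 66 pairs of the 12 libraries none agreed within sampling noise (smallest chi-square per gene 20.6).

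Libraries, gene lists (45, with 2271 of 2411 symbols matched to the count table, 31 through RefSeq synonyms) and the rule for named genes were chosen with earlier results of these data known. Named were genes called by any tool, the 10 genes of smallest p in each direction (descriptive symbol, mean log2 CPM not below 0), up to 3 of smallest p in each described list, and 9 fixed genes. Some genes that this rule names are not reported here. Described were lists of other organs, vision, neurotransmission, lipids and xenobiotics and the 5 with the highest and the lowest medians. Genes named for other comparisons, from genes called or shared, were chosen after their values were seen.

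Alternatives were DESeq2 1.42.0, limma 3.58.1 on log2(value + 1) of the linear quantile values, RLE factors, no filter, 1 CPM in 6 libraries, robust dispersion, 24 or 12 libraries, 5 surrogate variables (sva 3.50.0), the title letter or the column set as a block, and each library left out.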

Additional observations from a re-analysis of the deposited data

Results flagged for a closer look

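Among 240 groups of 6 libraries checked, 15 held a library that stood apart from the other 5; chance flags about 1 in 20. At 14 µM and 4 dpf these were library B for the mean log2 CPM of the PPAR and RXR list (2.60, the others 3.43 to 3.64), for pparab (log2 CPM -3.57, no read), for rxrba (3.55, the others 4.74 to 5.18) and for gsta.2 (-2.68, the only library with a read). Library H stood apart for mogat3b and ugt2a6 (both -3.57, no read), A for lim2.2 (-3.57, no read) and C for fev (-3.57, no read).

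In DMSO at 4 dpf library F was high for fscn2a (4.67, the others 3.87 to 4.13) and for the mean of the immediate early genes (3.69, the others 3.05 to 3.27). Library H was low for the mean of the kidney and ionocyte genes (2.07, the others 2.55 to 2.80), B low for slc24a1 (2.73), and E the only one with reads of apoa4a (-1.49). Library G was without a read of mogat3b (-3.57) and high for pparab (0.96, the others 0.20 to 0.40).

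In 2 of the named genes every 14 µM library lay on 1 side of the DMSO mean at 4 dpf and every one on the other side at 5 dpf. The share among all genes is not given. Mtmr10 was named for its small p at 4 dpf, which largely sets its side at that age. For six7 the differences in mean log2 CPM were -0.46 at 4 dpf and 0.48 at 5 dpf, which is -0.94 between ages. For mtmr10 they were -0.67 and 0.21, which is -0.89 between ages. The interaction test of edgeR gave an adjusted p of 1 for both.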

How the results depend on the processing

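The count of 0 genes for 14 µM against DMSO at 4 dpf became 1 (rbms1b) in DESeq2 and in limma, and 0 to 1 when each library was left out, with 1 without library I of 14 µM. Genes at an unadjusted p under 0.05 (1046 of 20723, 5.05%) were 465 of 18353 (2.53%) in the fit of 24 libraries and 469 of 17002 (2.76%) in that of 12. Those fits estimate the spread from fewer libraries and keep fewer genes, and the reason for the lower numbers was not tested. With the column set as a block 753 genes (3.63%) passed, 50.6% of them higher. With libraries left out the number was 696 (without B of 14 µM) to 1605 (without I of 14 µM). The share higher at 14 µM (54.2%) was 65.9% with 12 libraries, 35.9% with surrogate variables and 38.7% with the replicate block; RLE scaling moved the median of all genes by 0.04.

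Against 25.1 µM the 620 genes at an unadjusted p under 0.05 became 1202 without the filter, 196 with 24 libraries, 1728 with surrogate variables and 575 to 1018 (without D of 14 µM) with libraries left out. Against 7.87 µM the 1663 became 839 with 24 libraries and 733 (without H of 7.87 µM) to 2745 (without B of 7.87 µM) with libraries left out, or 2527 without B of 14 µM; genes called were 1 with surrogate variables (ptger2a), 1 with the replicate block (kcnj1a.1), 1 in DESeq2 (jagn1a) and 0 to 2 with libraries left out (jagn1a and yeats4 without B of 14 µM). Between ages the 478 became 955 without the filter, 793 with surrogate variables and 396 to 729 (without I of 14 µM at 4 dpf) with libraries left out. At 5 dpf the 151 became 505 without the filter, 517 with surrogate variables, 266 with the replicate block, 257 with the column block and 116 to 292 (without G of 14 µM) with libraries left out, or 229 without C of DMSO, and 2 genes (bik, cyp2k18) were called with surrogate variables. The causes were not tested.

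Of 1159 alternative values for 91 named genes 19 had the other sign, and none of these genes was called in either. With surrogate variables the log2 fold changes were -1.57 for prss1, -0.04 for angptl4, -0.08 for cpt1b, -0.06 for serpina1l, -0.26 for pdia2, -0.51 for cpa5, -0.88 for cel.2, -0.16 for rgs16 and -0.04 for vtnb. Fkbp5 (-0.31 to 0.22 with libraries left out) had 0.03 with 24 libraries, 0.02 with 12, 0.00 in DESeq2, 0.02 in limma and 0.22 without F of DMSO; angptl4 -0.14 with the replicate block and -0.04 (without B) to 0.40 with libraries left out; cpt1b -0.25 (without D) to 0.30; cel.2 -0.05 in limma; and rgs16 -0.23 (without B) to 1.06. The difference in the share of the 10 most counted genes (0.055 percentage points) was -0.537 to 1.15 with libraries left out, negative in 8 of 12 cases (-0.459, -0.162, -0.367, -0.0896, -0.51, -0.0813 and -0.436 among them).

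The 14 µM and DMSO groups at 4 dpf share only letters B, H and I, whose deviations correlated at 0.058, 0.546 and 0.404. Library H of 14 µM correlated best with its own letter. Library I did so nearly as well as with H of DMSO (0.407), and B correlated best with G of DMSO (0.189). The labels do not say what a letter marks. With the letter as a replicate block 0 genes were called in the comparison with DMSO and 1184 had an unadjusted p under 0.05. The leading genes with few reads (rbms1b 0 to 42 a library) are limited by counting error as well as by the spread between pools.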
